A study of Rattus norvegicus with 24 samples.

Results

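The livers of 6 cyclophosphamide-treated rats were compared, 3 from rats that had a wood stick (animals 4001, 4003 and 4005) and 3 from rats that had none (2001, 2003 and 2005). These arrays were picked by their tissue, treatment and housing labels, and they are 6 of the 24 arrays of the series. All animals were male wild-type Sprague-Dawley rats of 46 to 49 days. The drug groups received 40 mg/kg/day of cyclophosphamide orally for 5 days, and the other livers came from 6 rats given vehicle, 3 with a wood stick (3001, 3003 and 3005) and 3 without (1001, 1003 and 1005). Organs were frozen and extracted animal by animal, and 5 µg of RNA of each was hybridised to a rat Affymetrix expression array. The question was whether access to wood, a form of cage enrichment, changes the liver's expression in rats under the drug.

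Cyclophosphamide is a prodrug that hepatic cytochrome P450 enzymes turn into the alkylating mustard, while aldehyde dehydrogenases and glutathione transferases clear its intermediates. The liver also makes most of the body's cholesterol and, after feeding, fatty acids. Cholesterol is built from acetyl-CoA through mevalonate, farnesyl diphosphate and squalene, and the genes of this route are switched on together by the transcription factor SREBP-2 when sterols run low, whereas SREBP-1c governs the fatty acid enzymes. Both factors are known to act with NF-Y, which binds the CCAAT box.

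No single gene passed the test between the wood and no-wood livers under the drug. Of 41 gene lists, chosen with earlier results of these data known, cholesterol synthesis had the median farthest from 0. In the wood livers 18 of its 20 tested members had a lower mean. Their median difference was −0.62 on the log2 scale, where 1 unit is a doubling. At an unadjusted p under 0.05, 14 of the 20 were lower, against 2.95% of all genes. That count was 9 without animal 2003, against 2.38% of all genes in that fit, 9 without 4001, and 8 when only the groups compared were fitted. The members are switched on together and were read in the same 6 rats, so they are not separate tests. Fatty acid synthesis genes lay on the same side, with 19 of 20 below 0 and a median of −0.44. Genes of fatty acid oxidation and fasting lay on the other side, with 23 of 27 above 0 and a median of 0.13. The median over all 12077 tested genes was 0.02.

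Promoters of the 4 cholesterol synthesis genes named for their small p-values are shown first, because SREBP-2 and NF-Y are known to act on such promoters. Each run gives the 250 bases before the gene's start in the RefSeq annotation of GRCr8, 5′ to 3′ on the gene's strand, with each CCAAT box, or its reverse complement ATTGG, in capitals.
Acat2, plus strand of chr1:50100590-50100839: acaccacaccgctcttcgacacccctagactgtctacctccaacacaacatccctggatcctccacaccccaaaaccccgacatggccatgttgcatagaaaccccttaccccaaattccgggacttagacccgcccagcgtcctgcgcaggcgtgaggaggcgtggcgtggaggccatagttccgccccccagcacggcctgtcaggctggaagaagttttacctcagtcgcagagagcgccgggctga
Hsd17b7, minus strand of chr13:84722755-84723004: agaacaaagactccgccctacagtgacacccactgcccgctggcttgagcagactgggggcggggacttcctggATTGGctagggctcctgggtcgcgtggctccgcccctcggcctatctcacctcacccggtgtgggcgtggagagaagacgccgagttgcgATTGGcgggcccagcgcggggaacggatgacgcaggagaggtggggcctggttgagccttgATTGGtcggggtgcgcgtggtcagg
Fdps, minus strand of chr2:176804817-176805066: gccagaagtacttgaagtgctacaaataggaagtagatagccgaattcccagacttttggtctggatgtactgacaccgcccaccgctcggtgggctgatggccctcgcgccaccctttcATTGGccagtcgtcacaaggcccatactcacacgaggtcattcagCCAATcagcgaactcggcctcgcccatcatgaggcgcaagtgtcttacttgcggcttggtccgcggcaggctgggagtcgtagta
Idi1, minus strand of chr17:66547525-66547774: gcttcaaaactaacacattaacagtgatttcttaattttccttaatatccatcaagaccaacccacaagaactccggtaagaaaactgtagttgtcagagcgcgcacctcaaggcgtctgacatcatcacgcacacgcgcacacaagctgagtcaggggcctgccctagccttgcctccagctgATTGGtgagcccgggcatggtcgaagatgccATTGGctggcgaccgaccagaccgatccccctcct

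Hsd17b7 has 3 such boxes, Fdps and Idi1 have 2 each, and the Acat2 window has 0. The promoter table holds 16 of the 20 tested cholesterol synthesis genes, and 13 of these (81.2%) have a CCAAT on either strand, against 34% of all 33469 promoters searched. Those 33469 include genes not tested in the liver, so the 34% is not a share of liver genes. Acat2, Cyp51 and Dhcr7 have no box and differed by −1.33, −0.75 and −0.49. Mvk and Nsdhl have 5 each and differed by −0.49 and −0.06. Whether the boxes go with the differences was not tested. Of the fatty acid synthesis genes, 9 of the 14 with a promoter have one. A sterol response element spelled TCACNCCAC, searched on both strands, was in 0 of these 16 and 14 windows and in 0.974% of all promoters. Only this spelling was searched, so the 0 does not mean that these windows lack sterol response elements of other spellings. These matches describe letters in the windows and are not evidence of binding.

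One array stood apart from the other livers. The array of animal 2003 (cyclophosphamide, no wood) had 6060 blank probe sets against 4924 to 5206 on the other 11, a median intensity of 101.4 against 89.74 to 92.7, and a mean Pearson r of 0.887 with the other livers against 0.929 to 0.941. Among 10799 genes measured on all 12 livers, it was the highest or lowest of the 6 drug livers in 53.5%, against 24.9% to 32.8% for the other 5. Among the genes on which it lay farthest below the other 5, Mex3d read −6.63 in 2003 against 4.43 to 5.84, Hdac4 −3.55 against 5.14 to 6.18, Sdk2 −3.41 against 4.94 to 6.05, Sim2 −3.14 against 4.75 to 5.86, and Il15 −1.04 against 5.98 to 6.53 (log2 intensity). Those farthest above were Lrrn2 at 8.48 against 2.09 to 6.26, Prl2a1 at 7.41 against 0.70 to 5.29, Clic1 at 8.40 against 1.73 to 8.04, B9d2 at 5.83 against −3.06 to 4.41 and Rcor3 at 8.17 against 3.67 to 5.53.

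**Figure D1:**
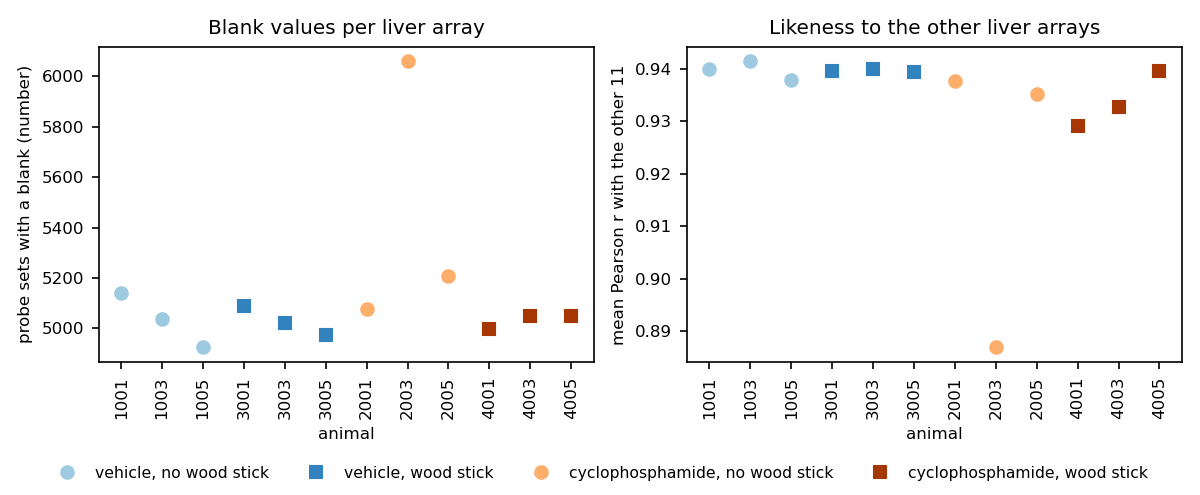
Number of blank probe sets (left) and mean Pearson r with the other 11 liver arrays (right) for each liver array, by animal; circles are rats without and squares rats with a wood stick. Animal 2003 has 6060 blanks and a mean r of 0.887, apart from the other 11 on both axes, which do not start at 0.

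Hepatocyte genes were at similar levels in the wood and no-wood drug livers. Albumin (Alb) read 13.22, 13.36 and 13.33 in the wood livers and 13.43, 13.32 and 13.13 in the no-wood livers, with the groups overlapping. The 14 tested hepatocyte markers differed by −0.09 to 0.04 between wood and no wood, with 0 at an unadjusted p under 0.05. In bulk liver, fewer cells of a type and less RNA per cell cannot be told apart.

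With limma and Benjamini-Hochberg adjustment, 0 of 12077 genes (0%) reached an adjusted p of 0.05, and the smallest adjusted p was 0.102. At an unadjusted p under 0.05, 552 genes (4.57%) were higher and 356 (2.95%) lower with wood. Of 10965 genes measured on all 6 arrays, the groups did not overlap in 714 higher (6.51%) and 432 lower (3.94%). The median standard error of a difference was 0.22, so the 95% interval of a typical gene reached 0.49 to each side. Without animal 2003, 0 of 11906 genes passed (0%, smallest adjusted p 0.157), 451 (3.79%) were higher and 283 (2.38%) lower at an unadjusted p under 0.05, and 450 of the 908 genes of the full comparison were again under 0.05 with the same sign. Leaving out animal 2001 instead gave 3 passing genes: Stxbp6 (higher by 1.44, adjusted p 0.0311), Tle3 (higher by 4.37, adjusted p 0.043) and the lower Zfp3 (−1.92, adjusted p 0.0311). Leaving out 2005 gave 1, Sectm1b (higher by 3.71, adjusted p 0.0162), and these 4 genes were chosen after their values were seen. In each the omitted rat read against the difference: 2001 had 7.34 for Stxbp6, among the wood livers at 7.09 to 7.51, 5.65 for Tle3, within the wood values of 5.52 and 6.48, and 2.34 for Zfp3, below all wood livers. Animal 2005 read 6.51 for Sectm1b, close to the lowest wood liver at 6.65.

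In the vehicle livers, the same comparison of wood with no wood also gave 0 passing genes (0%, smallest adjusted p 0.0867). There, 237 genes (1.96%) were higher and 198 (1.64%) lower at an unadjusted p under 0.05, and of 11629 measured on all 6 vehicle arrays 711 (6.11%) were apart higher and 631 (5.43%) apart lower. The test of the difference, the wood effect under drug minus that in vehicle, passed for 0 genes (0%, smallest adjusted p 0.151), with 310 (2.57%) higher and 256 (2.12%) lower at an unadjusted p under 0.05. The order of the 2 counts depended on the fit: the 908 under drug and 435 in vehicle became 554 and 709 with only the groups compared in the fit, and 697 and 887 with array weights. The median absolute difference was 0.19 under drug, 0.17 under drug without 2003 and 0.13 in vehicle. At an unadjusted p under 0.05, 51 genes had the same sign in both treatments, 5.62% of the 908 under drug and 11.7% of the 435 in vehicle, and 23 had opposite signs.

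**Figure D2:**
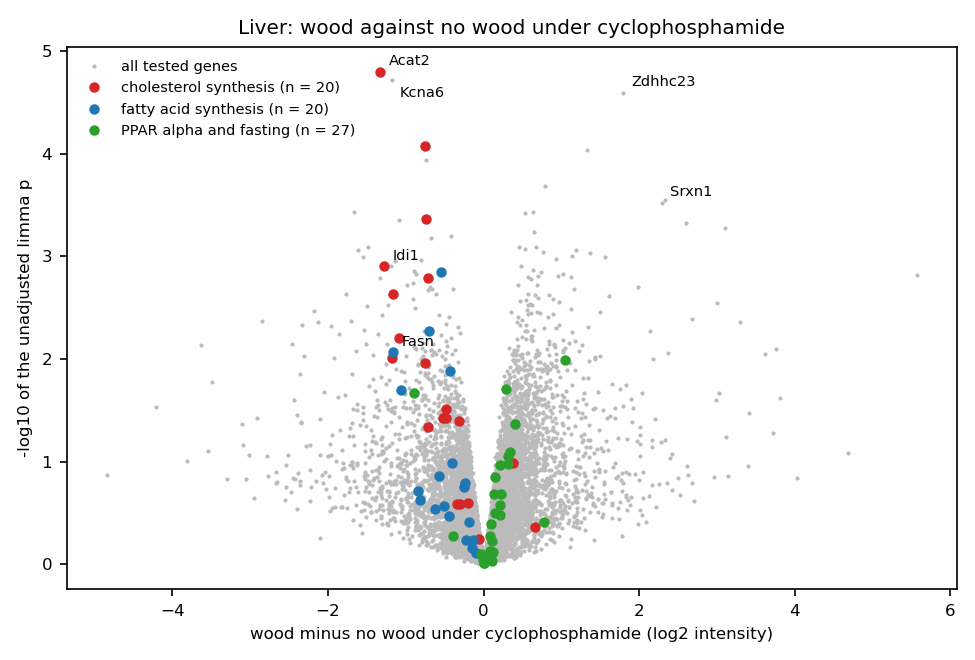
Each dot is 1 of 12077 genes, with the log2 difference between wood and no-wood livers under cyclophosphamide on the x axis and −log10 of the unadjusted limma p on the y axis; members of 3 gene lists are coloured. Of the cholesterol synthesis genes, 18 of 20 lie left of 0, with Acat2 the topmost, and 23 of 27 genes of fatty acid oxidation and fasting lie right of 0.

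The smallest p of all genes belonged to the first step of cholesterol synthesis. Acat2, the cytosolic thiolase that joins 2 acetyl-CoA, read 6.60, 6.04 and 6.34 in the wood livers and 7.70, 7.62 and 7.65 in the no-wood livers, so the groups were more than 1 log2 unit apart. Its difference was −1.33 ± 0.17 (SE), a 2.51-fold lower level, with an adjusted p of 0.102. In vehicle its difference was 0.07, the drug and vehicle differences differed by −1.39 ± 0.24 (SE, adjusted p 0.436), and without 2003 it was −1.34 (adjusted p 0.157). Mvk and Pmvk, the kinases that phosphorylate mevalonate, differed by −0.49 and −0.72 with overlapping groups. Animal 2003 had the highest Mvk of the 6 (7.45), and the Mvk difference was −0.24 without it. Mvd, the decarboxylase of the next step, differed by 0.67 with 1 blank and an interval from −1.18 to 2.51, and by 1.05 without 2003.

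The isoprenoid branch point was lower as well. Idi1, the isomerase of isopentenyl diphosphate, read 8.13, 7.49 and 8.55 with wood against 9.43, 9.56 and 9.02 without, a difference of −1.28 ± 0.28 (SE, adjusted p 0.396). Fdps, which makes farnesyl diphosphate, read 10.05, 10.35 and 10.60 against 11.14, 11.15 and 10.94, a difference of −0.75 ± 0.14 (SE, adjusted p 0.38). Neither gene's groups overlapped. Fdft1, which joins 2 farnesyl groups into squalene, differed by −0.30, and its groups overlapped.

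Squalene epoxidase (Sqle), an oxygen-dependent control point of the route, read 5.79, 5.84 and 6.63 with wood against 7.91, 7.04 and 6.84 without, a difference of −1.18 ± 0.37 (SE, adjusted p 0.578). Lanosterol synthase (Lss), which closes the sterol rings, read 7.26 to 7.33 in the wood livers and 7.95 to 8.09 in the no-wood livers, with no overlap. Its difference was −0.72 ± 0.17 (SE, adjusted p 0.396). Sterol 14-demethylase (Cyp51) differed by −0.75, although animal 4005 at 10.54 nearly reached the no-wood livers at 10.55 to 10.86.

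Among the enzymes that trim lanosterol to cholesterol, the methyl sterol oxidase Msmo1 read 8.20, 8.34 and 9.30 against 9.93, 9.79 and 9.35, a difference of −1.08 (adjusted p 0.568). Hsd17b7, a sterol 3-keto reductase, read 7.44, 7.55 and 7.83 against 8.39, 8.28 and 8.40, a difference of −0.75 ± 0.12 (SE, adjusted p 0.221). A second, dimmer Hsd17b7 probe set gave 0.02, so the 2 probe sets of this gene disagree. Tm7sf2 (−0.52), Dhcr7 (−0.49) and Sc5d (−0.32), which reduce or desaturate the sterol, were lower at an unadjusted p under 0.05, and the other Sc5d probe sets gave −0.03 and −0.09. Ebp (−0.20) and Nsdhl (−0.06) had overlapping groups.

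The regulators were mixed. Insig1, which holds SREBP in the endoplasmic reticulum and is itself an SREBP target, read 10.38, 10.32 and 9.81 with wood against 11.32, 11.43 and 11.25 without, a difference of −1.17 ± 0.29 (SE, adjusted p 0.43). Srebf2, the gene of SREBP-2 itself, differed by −0.35 with an interval from −0.99 to 0.30. Stard4, a sterol carrier, was on the other side at 0.38 (0.19 without 2003), and at 0.61 in vehicle.

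**Figure D3:**
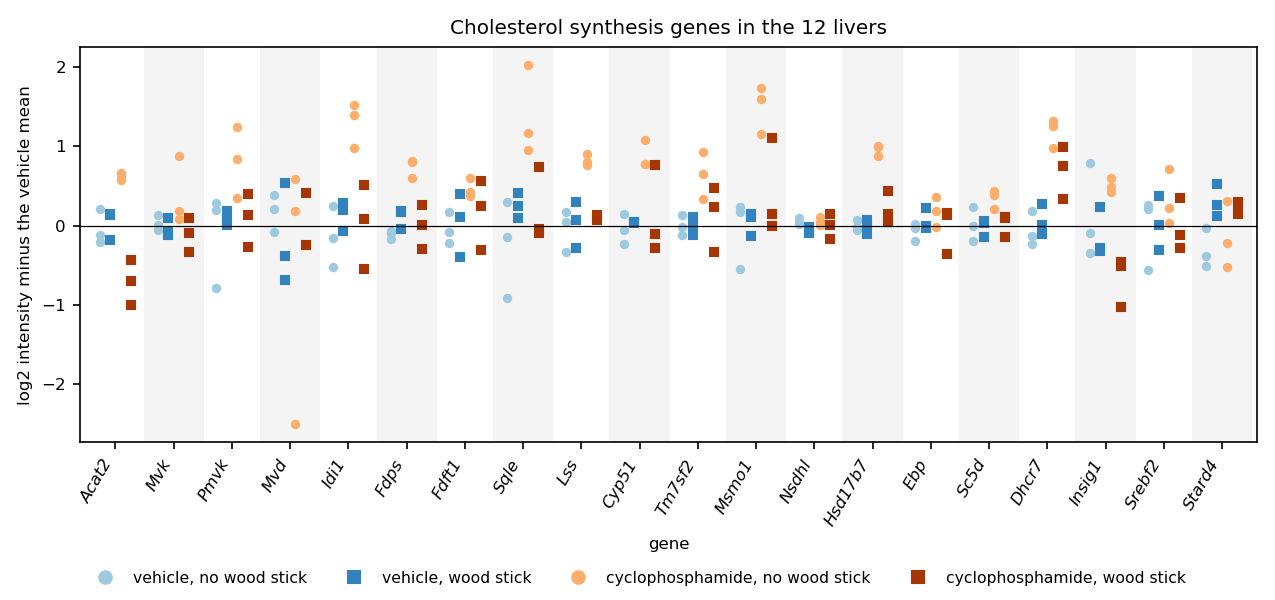
Log2 intensity of the 20 cholesterol synthesis genes in each of the 12 livers, minus that gene's mean in the vehicle livers, in pathway order with Insig1, Srebf2 and Stard4 last; circles are rats without and squares rats with a wood stick, in blue for vehicle and in orange and brown for cyclophosphamide. The no-wood drug livers lie above the wood drug livers without overlap for 10 genes, Acat2 and Insig1 among them.

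Array by array, the 2 drug groups did not overlap. Relative to the vehicle mean, the median of the 19 cholesterol synthesis genes measured on all livers was 0.49, 0.87 and 0.66 in the no-wood drug rats 2001, 2003 and 2005 and −0.14, 0.10 and 0.26 in the wood drug rats 4001, 4003 and 4005. The vehicle livers lay between −0.07 and 0.10. The no-wood drug livers were thus the high ones, and the wood drug livers straddled the vehicle level. Of these 19 genes 10 were apart lower under drug and 0 apart higher, against 3.94% of all genes apart lower. Without 2003, the highest of the 6, the median difference was −0.46 and 9 members were lower at an unadjusted p under 0.05, against 2.38% of all genes. Without 4001, the lowest of the 6, the median was −0.54, and 9 were lower. In vehicle the median difference was 0.07, with 0 members lower and 1 higher at that threshold, against 1.64% and 1.96% of all genes. In the spleens of the same drug rats the median difference was 0.04.

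Of the 20 tested fatty acid synthesis genes, 5 were lower at an unadjusted p under 0.05 and 4 were apart lower, against 2.95% and 3.94% of all genes. Fasn, the fatty acid synthase, read 6.39, 6.05 and 7.06 with wood against 7.77, 7.61 and 7.60 without, a difference of −1.16 ± 0.35 (SE, adjusted p 0.568), and 0.62 in vehicle. ATP citrate lyase (Acly), which supplies cytosolic acetyl-CoA to both pathways, read 8.89, 8.64 and 8.87 against 9.40, 9.36 and 9.29, a difference of −0.55 ± 0.12 (SE, adjusted p 0.396). Neither gene's groups overlapped. Acss2, which makes acetyl-CoA from acetate, differed by −0.70, and the citrate carrier Slc25a1 by −0.43, also without overlap. These 4 were the only members apart lower, and Lpin1, a phosphatidate phosphatase, differed by −1.06 with overlapping groups.

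The remaining fatty acid genes had intervals that reached 0. Thrsp, a lipogenic nuclear protein, read 11.76, 9.73 and 10.33 with wood against 11.18, 11.49 and 11.67 without. Scd, the stearoyl-CoA desaturase, differed by −0.81 with an interval from −2.25 to 0.62, and Srebf1, the SREBP-1 gene, by −0.62 with one from −1.85 to 0.62, and without 2003 these 2 differed by −0.53 and −0.97. Acaca, the carboxylase that commits acetyl-CoA to fatty acids, differed by −0.19. The list's median was −0.44 with and −0.47 without animal 2003, and 0.05 in vehicle. Its per-array median was 0.04, 0.17 and 0.25 in the no-wood drug rats and −0.17, −0.39 and 0.05 in the wood drug rats, so animal 4005 overlapped 2001 by a small margin.

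Genes of fatty acid oxidation and fasting, known targets of the receptor PPAR alpha, were mostly above 0 by small amounts. Vnn1, a pantetheinase, read 8.97, 9.59 and 9.67 with wood against 8.83, 8.15 and 8.13 without, a difference of 1.04 ± 0.33 (SE, adjusted p 0.58). Cpt1a, the gate of mitochondrial fatty acid import, differed by 0.41 with overlapping groups, and Hadha, a subunit of the trifunctional protein, by 0.29 without overlap. The fatty acid transporter Cd36 was on the other side at −0.90, reading 8.69, 8.74 and 8.18 against 9.74, 9.22 and 9.35. Fgf21, a fasting hormone, differed by 0.78 with an interval from −1.12 to 2.69, and by 0.41 without 2003, the lowest of the 6. Of the 27 members 3 were higher and 1 lower at an unadjusted p under 0.05, against 4.57% and 2.95% of all genes. Animal 4001 read like the no-wood livers here: the per-array medians were −0.30, −0.34 and −0.52 without wood and −0.30, −0.09 and −0.10 with it, and leaving out 4001 moved the list's median to 0.27.

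**Figure D4:**
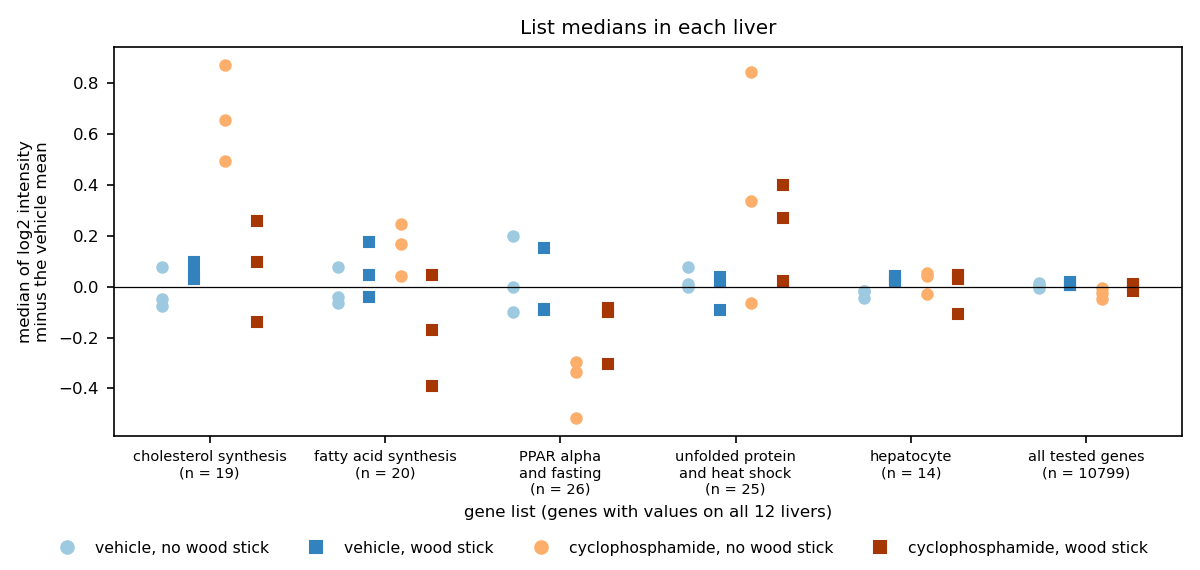
Median over the members of 5 gene lists and over all genes, in each of the 12 livers, of log2 intensity minus the gene's vehicle mean. For cholesterol synthesis the 3 no-wood drug livers lie at 0.49 to 0.87 and the 3 wood drug livers at −0.14 to 0.26, while the hepatocyte and all-gene medians stay close to 0.

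Of 21 tested genes that activate and clear cyclophosphamide, 3 were apart higher and 2 apart lower, against 6.51% and 3.94% of all genes, and their differences ran from −0.97 to 0.77. Cyp2c11, the male-specific P450, read 12.80, 12.37 and 12.96 with wood against 12.90, 12.72 and 12.58 without, and Cyp2c6v1 13.26, 13.43 and 13.34 against 13.46, 13.46 and 13.38. The intervals of their differences ran from −0.39 to 0.34 and from −0.28 to 0.10. Cyp3a2 differed by −0.05, Aldh2 by −0.05 and Aldh1a1, the aldehyde dehydrogenase that oxidises aldophosphamide, by −0.19 with an interval from −1.15 to 0.76. At an unadjusted p under 0.05, 1 of the 21 was higher, near the 4.57% of all genes, and 0 were lower. It was Gstp1, a glutathione transferase, which read 7.69, 7.73 and 7.94 against 7.25, 6.49 and 7.30. Its difference was 0.77 (adjusted p 0.538), and 0.51 without 2003, the lowest of the 6. Gsta3, another transferase, read 6.75, 7.32 and 6.96 against 7.43, 8.51 and 8.01 without overlap, a difference of −0.97 with an interval from −2.33 to 0.38. The efflux pump Abcg2 differed by −0.77 with overlapping groups. Cyp2b1 and Cyp2b2, the classic phenobarbital-inducible P450 genes, were not analysed here.

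Wood can carry compounds that induce hepatic P450 enzymes through the receptors CAR, PXR and AhR. Of 19 tested CAR and PXR targets 0 were at an unadjusted p under 0.05, their differences ran from −0.42 to 0.36, and their median was −0.07 under drug and 0.10 in vehicle. The ends of that range were Nr1i3, the CAR gene, and the drug efflux pump Abcb1a (0.22 without 2003), and P450 reductase (Por) differed by −0.39, or −0.12 without 2003. Of 5 tested AhR genes, Cyp1a2 read 12.62, 12.46 and 12.87 against 12.80, 12.80 and 12.25, a difference of 0.03 with an interval from −0.34 to 0.41, and Cyp1b1 differed by −0.15, or −0.56 without 2003, with overlapping groups. Ahr, the receptor itself, was lower by similar amounts in both treatments (−0.76 under drug and −0.67 in vehicle, with unadjusted p of 0.0237 and 0.0405). Under drug its groups overlapped, and it was the only 1 of the 5 lower at that threshold, against 2.95% of all genes. Without 2003, 0 of the 5 were, against 2.38%. Cyp1a1 had too few values to be tested.

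Of 24 tested antioxidant genes that NRF2 controls, 2 were higher and 2 lower at an unadjusted p under 0.05, against 4.57% and 2.95% of all genes. Srxn1 and Gstp1 were above, and Hmox1 and the pentose phosphate enzyme Pgd (−0.54, with overlapping groups) below. Srxn1, the sulfiredoxin that repairs oxidised peroxiredoxins, read 7.65, 6.66 and 7.66 with wood against 4.91, 5.11 and 5.06 without, and 5.43 to 6.73 in vehicle with 1 blank. Its difference was 2.30 ± 0.40 (SE, adjusted p 0.38), and its other probe set with values in both groups gave 0.84. Haem oxygenase (Hmox1) read 8.58, 8.73 and 8.38 against 9.11, 9.07 and 8.95, a difference of −0.48, and of −0.55 in vehicle, so it was lower with wood in both treatments without overlap. Nqo1 (−0.02), Gclc (−0.10), Gclm (0.22) and Txnrd1 (−0.07), the usual markers of the pathway, had overlapping groups.

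Clock and glucocorticoid genes were examined because the labels give no time of collection. Nr1d1, the REV-ERB alpha repressor, read 8.37, 8.46 and 7.68 with wood against 7.55, 6.94 and 7.21 without, a difference of 0.93 (adjusted p 0.583). Bmal1, the activator it represses, differed by −0.52 with overlap, and Cry1, another clock repressor, by −0.71 without. Bhlhe40 differed by −0.74, and Usp2, a rhythmic deubiquitinase, by −1.92 under drug and −1.21 in vehicle. These 5 of the 17 tested were at an unadjusted p under 0.05, 1 higher and 4 lower, against 4.57% and 2.95% of all genes. Dbp, Nr1d2, Clock and Cry2 were not under it. Without 2003 the counts were 1 and 1, against 3.79% and 2.38% of all genes. Whether time of day had a part in the sterol values was not tested. Of 18 glucocorticoid-responsive genes 1 was lower at an unadjusted p under 0.05, against 2.95% of all genes. It was Fkbp5, at −1.19, where animal 2003 at 9.78 was the highest, and without 2003 the difference was −0.64.

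Genes of the unfolded protein response were led by a single rat. Animal 2001 had the highest Sdf2l1 (11.34 against 9.73 to 10.31 in the other 5), Hyou1 (10.63 against 8.84 to 9.58) and Manf (11.98 against 10.47 to 11.26), which are chaperones or cofactors of the endoplasmic reticulum. The list's median of −0.17 became 0.05 without 2001. Xbp1, a transcription factor of this response, was the exception: it read 12.11, 12.14 and 12.10 with wood against 11.79, 11.54 and 11.30 without, a difference of 0.57 (adjusted p 0.43), and differed by 0.51 in vehicle, again without overlap. Hspa5, the chaperone BiP, differed by −0.17.

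Markers of other cell types gave few differences. Among 17 tested macrophage and Kupffer cell genes 0 were at an unadjusted p under 0.05, with a median of 0.02, and of 8 MHC class II genes 0 were, with a median of 0.05. Relative to the vehicle mean, the macrophage genes' per-array median was −0.64, −0.83 and −0.72 in the no-wood and −0.64, −0.35 and −0.96 in the wood drug livers. The 9 tested neutrophil genes had a median of −0.30, and one of them was the chemokine Cxcl1, which read 8.03, 8.36 and 7.77 with wood against 9.70, 10.03 and 8.92 without (−1.50, adjusted p 0.46). On the other side, S100a9, a calcium-binding protein of neutrophils, read 3.70, 5.70 and 4.49 against dim values of 2.24 and 3.18, blank in 2003 (1.92, adjusted p 0.621). These were the 1 lower and 1 higher gene of that list at an unadjusted p under 0.05, against 2.95% and 4.57% of all genes. The 13 tested erythroid genes had a median of −0.29 under drug, −0.16 under drug without 2003 and −0.35 in vehicle, with 0 under that threshold in either. The part of these cells in the other results was not tested.

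**Figure D5:**
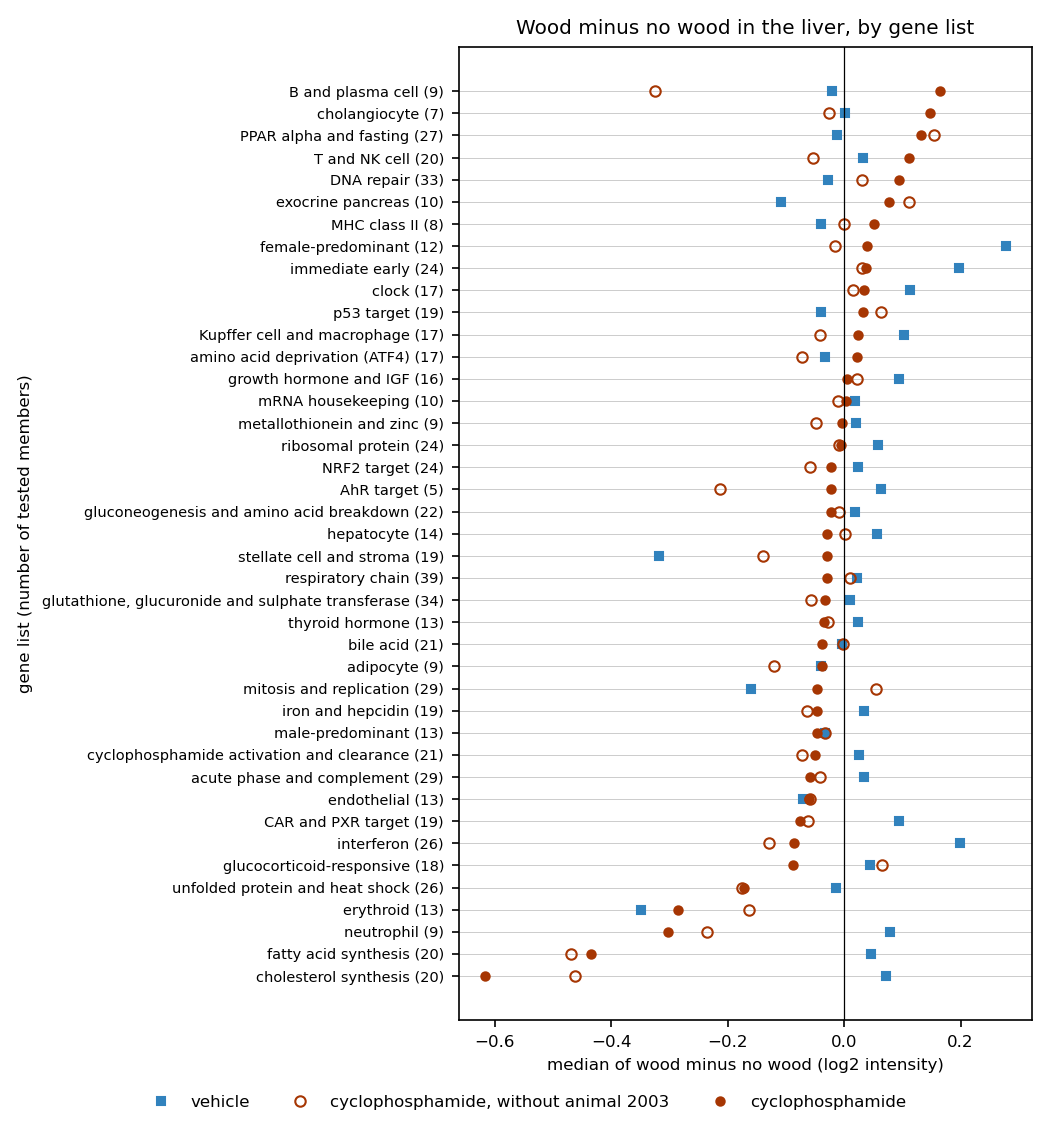
Median log2 difference between wood and no-wood livers over the tested members of 41 gene lists, under cyclophosphamide with all arrays (filled circles), without animal 2003 (open circles) and in vehicle (squares). Cholesterol synthesis lies at −0.62, or −0.46 without 2003, and fatty acid synthesis at −0.44, while the vehicle medians of both are above 0.

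By a rule over all genes, 12 genes in each direction were named by their p-values among those measured on all 12 livers with groups apart, and 0 of them passed. Zdhhc23, a palmitoyl transferase, read 7.54, 7.68 and 8.09 with wood against 6.09, 6.18 and 5.66 without, with all vehicle livers at or above 7.63. Its difference was 1.79 ± 0.24 (SE, adjusted p 0.102), and its no-wood drug livers were thus the low ones. Nhsl3 (1.33), Dzip1l (2.33) and Nfic (2.60) showed the same order of groups, with the no-wood drug livers below both vehicle groups. The Dzip1l no-wood values of 1.24 to 2.61 are dim, and on log2(intensity + 16) its difference was 0.86. Il1b, the interleukin-1 beta gene, read 5.58, 5.87 and 5.34 against 3.84, 4.49 and 4.89 (1.19, adjusted p 0.396), and differed by 0.78 on log2(intensity + 16). The other higher genes were Tom1l1 (0.79), mrpl9 (0.68), Thap11 (0.65), Rnf144b (0.64), Hira (0.54), Rictor (0.53) and Lats1 (0.46). In vehicle, Il1b also differed by 0.51, Nhsl3 by 0.42, Rnf144b by 0.36 and mrpl9 by 0.32, each without overlap. So did Rictor, a subunit of mTOR complex 2, by 0.34, and the Hippo kinase Lats1 by 0.36. Tom1l1 was on the other side in vehicle (−0.65), also without overlap.

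Kcna6, a voltage-gated potassium channel gene, was the lower gene next to Acat2, at 6.17, 6.54 and 6.37 with wood against 7.51, 7.44 and 7.68 without (−1.18, adjusted p 0.102). Its dimmer probe sets, with some blanks, gave 0.40 and 1.22. Calml4 (−0.74), C1qtnf5 (−1.61), RragB (−1.55), the muscle phosphofructokinase Pfkm (−0.81), Ncam1 (−1.09), Cdc42bpb (−0.67) and Bcl6b (−0.42) completed the lower genes with Acat2, Hsd17b7, Fdps and Idi1. On log2(intensity + 16) the RragB difference was −0.97. Bcl6b was lower in all 4 of its probe sets (−0.27 to −0.50), whereas second probe sets gave 0.06 for Cdc42bpb, −0.04 for Hira and, from few values, −0.29 for Rictor, −1.96 for Thap11 and 2.20 for Ncam1. Of the 12 lower genes 4 belong to cholesterol synthesis. In vehicle, Bcl6b was on the same side (−0.17), while Fdps (0.22), C1qtnf5 (0.66) and RragB (0.65) were on the other, each without overlap.

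For the test of the difference between the treatments, the 5 genes named in each direction were Tom1l1, Zdhhc23, Sdr39u1, Dab2 and Dzip1l above 0 and Acat2, Calml4, Fdps, Kcna6 and C1qtnf5 below. Tom1l1, an endosomal adaptor, differed by 0.79 under drug and −0.65 in vehicle, a difference of 1.44 ± 0.20 (SE, adjusted p 0.163). Dab2, a clathrin adaptor, was at 8.03 to 8.08 with wood and 7.65 to 7.82 without under drug, and at 7.31 to 7.54 with and 7.83 to 7.98 without in vehicle, so its order turned round. Sdr39u1 differed by 0.77 and −2.16.

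In vehicle livers the named genes were Slc25a30 (1.92), Cish (2.47), Tmem70 (1.24), Vegfb (0.65) and Wwc1 (0.63) on the higher side and Rapgef5 (−1.29), Pip4k2a (−0.89), Sdr39u1 (−2.16), Coq3 (−0.92) and Dab2 (−0.47) on the lower. Under drug, Slc25a30, a mitochondrial carrier, differed by 1.10 (9.86, 9.41 and 9.41 with wood against 8.39, 8.60 and 8.40 without), Wwc1 by 0.44, Rapgef5 by −0.64 and Pip4k2a by −0.26, each in the vehicle direction without overlap. Cish, a feedback inhibitor of cytokine and growth hormone signalling, read 7.56, 6.72 and 5.77 against 6.47, 5.85 and 6.08 under drug, where its groups overlapped.

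The spleen array of animal 2005 had 1798 blank probe sets against 1021 to 1155 in the other 5 drug spleens. The vehicle no-wood spleens had 1778 to 1920 and the vehicle wood spleens 1054 to 1183. In the spleens of the same 6 drug rats, wood against no wood gave 0 of 13336 genes passing (0%, smallest adjusted p 0.0886), with 498 (3.73%) higher and 633 (4.75%) lower at an unadjusted p under 0.05. Their total of 1131 was 695 without animal 4005 and 870 without animal 2005. Without 2005, 2 genes passed with limma (smallest adjusted p 0.00436). With all spleens, Acat2 differed by 0.04, Idi1 by −0.10, Fdps by −0.17, Hsd17b7 by −0.47 and Fasn by 0.06, each with overlapping groups. Nr1d1 differed in the same direction in the spleen, at 9.28, 9.05 and 9.03 against 8.56, 8.99 and 8.39 (unadjusted p 0.0242). Fkbp5 differed in the spleen by −0.89, without overlap (unadjusted p 0.00324).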

How the data were processed

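The values of 24 arrays were analysed as the authors deposited them, as log10 intensities of 30980 probe sets in 1 column per array. For the summary and scaling of probe signals, the method is not stated by the labels or file headers. The log base was inferred: without the extreme 1% at either end the values span 2143-fold as log10 and 10.06-fold as log2. They were multiplied by log2(10) and not scaled further, so differences are log2 values although a log2 table had been assumed when the tests were set. Blanks (10.47% of values) stayed missing; where 1 liver array was blank, the others had a median intensity of 22.08, against 92.28 for all liver values, so blanks fall on dim probe sets.

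Of the probe sets, 20792 name 1 gene, 436 several and 9752 none. Each of the 14201 genes was read from its brightest probe set over all arrays, with symbols updated through RefSeq (GRCr8). The 4 liver groups were fitted together with limma 3.58.1 in R 4.3.3 for genes with at least 2 values in each group, and the spleen separately, with Benjamini-Hochberg adjustment and a threshold of 0.05. Each value is 1 array of 1 rat, and 3 rats a group limit the precision. The scripts were tested on simulated data.

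Named genes were up to 12 in each direction by p, up to 3 of each gene list by size of difference, up to 5 in each direction for the vehicle and difference tests, and up to 5 in each direction by the distance of animal 2003 from the other 5. Where no gene passed, p ranked those measured on all 12 livers with groups apart. Every measured member of the cholesterol synthesis list is given, and other genes outside the rule were chosen after their values were seen. The members and the 41 lists were chosen with earlier results of these data known.

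Alternatives changed the scaling, the handling of blanks and dim genes, the probe set, the arrays in the fit, the variance model, array weights and a replicate block, and left out each rat in turn.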

Additional observations from a re-analysis of the deposited data

How the results depend on the processing

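With 3 rats a group, the typical 95% interval of a gene reached 0.49 log2 units to each side, and 2124 genes with too few values were not tested. The number of genes passing in the liver under drug was 1 instead of 0 when only genes at or above the median level were tested (Zdhhc23, adjusted p 0.0462), and 0 to 3 when 1 rat was left out. Leaving out 1 rat gave 0 to 2 in vehicle (without 1003, Slc25a38 and Xxylt1; without 3001, Xxylt1; without 3005, Rgs12), 0 to 1 for the difference (Slc25a38 without 1003) and 0 to 2 in the spleen. The spleen count was also 2 with log2(intensity + 16), 1 with the trended and robust variance model, 1 with array weights and 1 with the replicate block. In the liver under drug the replicate block, the last digit of the animal number, gave 0 passing genes, 834 at an unadjusted p under 0.05 and 12 lower cholesterol synthesis genes. Deviations of same-digit rats correlated at −0.19 to 0.085 over 18 pairs, so the digits were not taken to pair the rats.

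The 908 liver genes at an unadjusted p under 0.05 became 523 with genes at or above the median level, 554 with only the groups compared in the fit, and 734 to 1299 without 1 rat. In vehicle, 435 became 250, 709 and 350 to 581, and 887 with array weights against 697 under drug, so the order of drug over vehicle turned with the groups compared alone and with array weights. The spleen's 1131 became 715 with genes at or above the median level and 695 to 1536 without 1 rat. The 14 lower cholesterol synthesis genes became 8 with only the groups compared, 8 with array weights and 9 to 14 without 1 rat. Medians without 1 rat were −0.71 to −0.46 for cholesterol synthesis, −0.54 to −0.29 for fatty acid synthesis and 0.10 to 0.27 for fatty acid oxidation and fasting. Of 582 refitted values of 25 named genes, 580 kept their direction. The drug groups of these genes did not overlap, so leaving out 1 rat could not reverse them. Leaving out a vehicle rat left the difference under drug as it was. The count is therefore no measure of how stable these genes are. With the mean of all probe sets, Rictor reversed to −0.549 and Ncam1 to 0.239, where dimmer probe sets of these genes differ from the brightest.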

Other observations

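Several genes of the other lists had the wood livers on the same side in both treatments. Nr0b2, the bile acid-induced repressor SHP, read 9.22, 8.72 and 8.11 with wood against 9.93, 9.93 and 10.33 without under drug, a difference of −1.38, and differed by −1.58 in vehicle. Bcl6, a transcriptional repressor, differed by −1.55 under drug and −2.24 in vehicle, and Il6r, the interleukin-6 receptor, by −0.63 and −0.50. The groups of these 3 genes did not overlap in either treatment, and none passed the adjusted test with limma. Others differed under drug: Mcm4, a subunit of the replicative helicase, read 6.25, 6.14 and 6.14 with wood and at most 5.44 without (1.12), and differed by −0.16 in vehicle. Igfbp2, a binding protein of insulin-like growth factors, differed by 1.91 under drug and −0.23 in vehicle, with overlapping groups in both.

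Of 33 tested DNA repair genes 3 were higher and 0 lower at an unadjusted p under 0.05, against 4.57% and 2.95% of all genes, with a median of 0.10. Without animal 2003, 2 were higher and the median was 0.03. Of 26 interferon genes 1 was higher and 2 lower, against the same 4.57% and 2.95% of all genes, with a median of −0.09, or −0.13 without 2003. Among 24 immediate early genes the median was 0.04 under drug and 0.20 in vehicle. Under drug 2 of them were higher and 0 lower at an unadjusted p under 0.05, against 4.57% and 2.95% of all genes. Without 2003, 1 was higher, against 3.79%. In vehicle 4 of them were higher and 0 lower at that threshold, against 1.96% and 1.64% of all genes.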
